A study of Mus musculus with 12 samples.

Results

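The mature microRNAs (miRNAs) of wild-type (WT) mouse hippocampus were described from 3 small RNA libraries, the columns headed WT1, WT2 and WT4, out of 12 libraries in the series. The columns were chosen by genotype and library kind as labelled, with no measured value used. The animals were male, 4 months old and WT littermates of APP/PS1 mice, which carry the APPswe and PSEN1dE9 transgenes. The labels call them wild type, and do not give their strain or say whether the small RNA and total RNA libraries came from the same animals. Total RNA had been isolated from hippocampus with TRIzol, and miRNA libraries had been made with the TruSeq small RNA kit. No genotypes were compared, so each value is a description of 1 group, given per library or as mean ± SD over 3 libraries. The design names 3 WT littermates, and the 3 columns were taken to be 3 animals.

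A miRNA gene is transcribed as a longer RNA whose hairpin is cut by Drosha in the nucleus and by Dicer in the cytoplasm. This leaves a short duplex with a strand from the 5′ side (5p) and one from the 3′ side (3p) of the hairpin. Usually one strand is loaded into an Argonaute protein and the other is degraded. The loaded strand finds its target messenger RNAs mainly through its seed, bases 2 to 8 counted from its 5′ end, so miRNAs with the same seed are grouped as a family. In hippocampus, miRNAs shape neuronal differentiation, dendritic spines and synaptic plasticity, and several are made in response to neuronal activity.

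The mature sequences of the most abundant families show what the later shares refer to. They are from RefSeq, annotated on GRCm38.p6 (mm10), with the seed in capitals. The let-7 family is shown first because 9 of its members reached 100 CPM (counts scaled to a library total of 1000000), with 1 seed and small differences after it.
let-7g-5p: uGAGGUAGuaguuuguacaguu
let-7f-5p: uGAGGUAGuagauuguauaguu
let-7i-5p: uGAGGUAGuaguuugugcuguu
let-7c-5p: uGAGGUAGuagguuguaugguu
let-7a-5p: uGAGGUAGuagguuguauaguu
let-7b-5p: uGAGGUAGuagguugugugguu
let-7d-5p: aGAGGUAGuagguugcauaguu
let-7e-5p: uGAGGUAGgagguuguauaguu
miR-98-5p: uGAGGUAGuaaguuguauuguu

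The other leading families are shown by their highest member among names matched to RefSeq, with close relatives where they matter for reading the counts.
miR-9-5p: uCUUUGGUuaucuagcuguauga
miR-128-3p: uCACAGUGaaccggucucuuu
miR-99a-5p: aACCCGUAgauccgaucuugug
miR-100-5p: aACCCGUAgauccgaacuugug
miR-99b-5p: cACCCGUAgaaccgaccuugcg
miR-26a-5p: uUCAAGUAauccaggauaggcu
miR-127-3p: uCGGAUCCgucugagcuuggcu
miR-218-5p: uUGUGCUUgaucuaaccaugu
miR-30a-5p: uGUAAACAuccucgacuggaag
miR-7a-5p: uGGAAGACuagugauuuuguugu
miR-7b-5p: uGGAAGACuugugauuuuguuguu
miR-29a-3p: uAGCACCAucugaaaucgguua
miR-125b-5p: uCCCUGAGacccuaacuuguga
miR-27b-3p: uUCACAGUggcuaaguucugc

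The columns summed to 21631169, 18071167 and 16557707 counts for WT1, WT2 and WT4. Of 1978 listed miRNAs, 970 had a count in every library, 358 in some libraries and 650 in none. A single count equalled 0.0462 CPM in WT1, 0.0553 in WT2 and 0.0604 in WT4, and the limit that a count of 0 allows, 3 counts, equalled 0.139, 0.166 and 0.181 CPM. For miR-9-5p the 95% Wilson interval of its share had a half-width of 0.017 percentage points in WT4, while the SD between libraries was 0.676 points. Such intervals and floors cover counting error only. Over 446 miRNAs with a mean count of at least 100, Pearson's r of log2(CPM + 1) between pairs of libraries was 0.994 to 0.995, across miRNAs that are not independent replicates. The median coefficient of variation (CV) over these miRNAs was 12.5%, and it exceeded 30% for 23 of them.

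The first question was which miRNAs make up the hippocampal pool. miR-9-5p, which governs the timing of neural differentiation and is abundant in neural tissue, stood first. It reached 137972 CPM in WT1, 131794 in WT2 and 145297 in WT4, or 13.8% ± 0.676 of all counts (SD, n = 3). miR-128-3p, a brain-enriched miRNA that limits neuronal excitability, was second at 61533, 84587 and 72009 CPM. miR-9-5p exceeded miR-128-3p 2.24-fold in WT1, 1.56-fold in WT2 and 2.02-fold in WT4, and their ranges did not overlap.

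miR-99a-5p followed at rank 3. Its family is known for acting on the mTOR kinase. It stood at 65951, 66094 and 56955 CPM in WT1, WT2 and WT4. The ranges of miR-128-3p and miR-99a-5p overlapped, and miR-99a-5p was the higher of them in WT1. let-7g-5p stood at 57530, 53254 and 61931 CPM and let-7f-5p at 52874, 50607 and 55324 CPM. Both belong to let-7, a family that rises as cells leave the progenitor state and whose processing is blocked by Lin28. let-7g-5p was higher in every library, although the ranges overlapped. miR-26a-5p stood at 51814, 49197 and 47603 CPM. Its hairpins lie within the spans of the phosphatase genes Ctdspl and Ctdsp2.

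The ranks from 7 to 10 were held by miR-127-3p, let-7i-5p, miR-218-5p and let-7c-5p. miR-127-3p, from the imprinted Dlk1-Dio3 region of chromosome 12, stood at 47051, 41211 and 40911 CPM. let-7i-5p stood at 36435, 40634 and 45803 CPM, and it was above miR-127-3p in WT4 alone. miR-218-5p is encoded within Slit2 and Slit3, genes for axon guidance ligands, and stood at 35497, 35766 and 32312 CPM. let-7c-5p was among the steadiest of the abundant miRNAs, at 30650, 29324 and 29626 CPM. The same 10 miRNAs were the top 10 of each library.

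These 10 miRNAs held 57.7% of counts in WT1, 58.2% in WT2 and 58.8% in WT4. The top 30 held 81.2% ± 0.531 and the top 100 held 96.0% ± 0.166. It took 8 miRNAs to reach 50% of the counts in each library, 55, 53 and 52 to reach 90%, and 200, 196 and 194 to reach 99%. Levels of at least 1000 CPM were reached by 79 to 82 miRNAs per library, and 10000 CPM by 20 to 22. The small pool of dominant miRNAs thus had nearly the same size in all 3 libraries, as the cumulative plot shows.

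**Figure D1:**
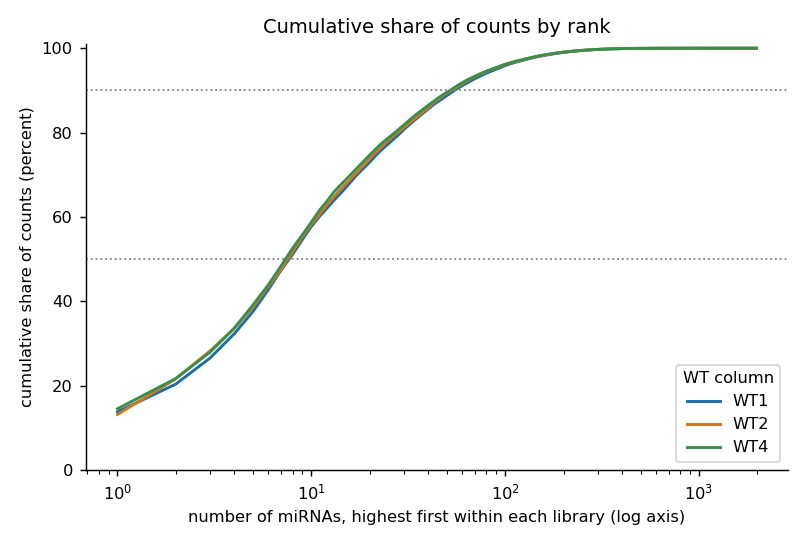
Cumulative share of counts (percent) against the number of miRNAs taken from the highest down within each library (log axis), 1 line per WT column, with dotted lines at 50 and 90 percent. The 3 lines nearly coincide, crossing 50 percent at 8 miRNAs and 90 percent at 52 to 55.

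The order below the first place was only partly resolved. Of the 29 adjacent pairs among the top 30 miRNAs, 11 were in the same order in every library, and for 7 the ranges of the libraries did not overlap. Those 7 gaps fell after miR-9-5p, miR-26a-5p, let-7i-5p, miR-218-5p, let-7c-5p, miR-30d-5p and miR-381-3p. Thus miR-7a-5p at rank 11 (22168 ± 6277 CPM) and miR-29a-3p at rank 12 (22148 ± 1259 CPM) cannot be ordered. At the lower borders, miR-101c at rank 30 (5875 ± 591 CPM) overlapped miR-100-5p at rank 31 (5726 ± 231 CPM). The counts of miR-101c and of miR-101a-3p at rank 29 differed by at most 26 in any library, so they cannot be told apart as separate miRNAs. miR-136-5p at rank 100 (722 ± 96.5 CPM) likewise overlapped the next miRNA, miR-1839-5p (703 ± 94.3 CPM). Order is given by overlap of the library values, and no p-value was computed. The plot of the top 30 by library shows these overlaps.

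**Figure D2:**
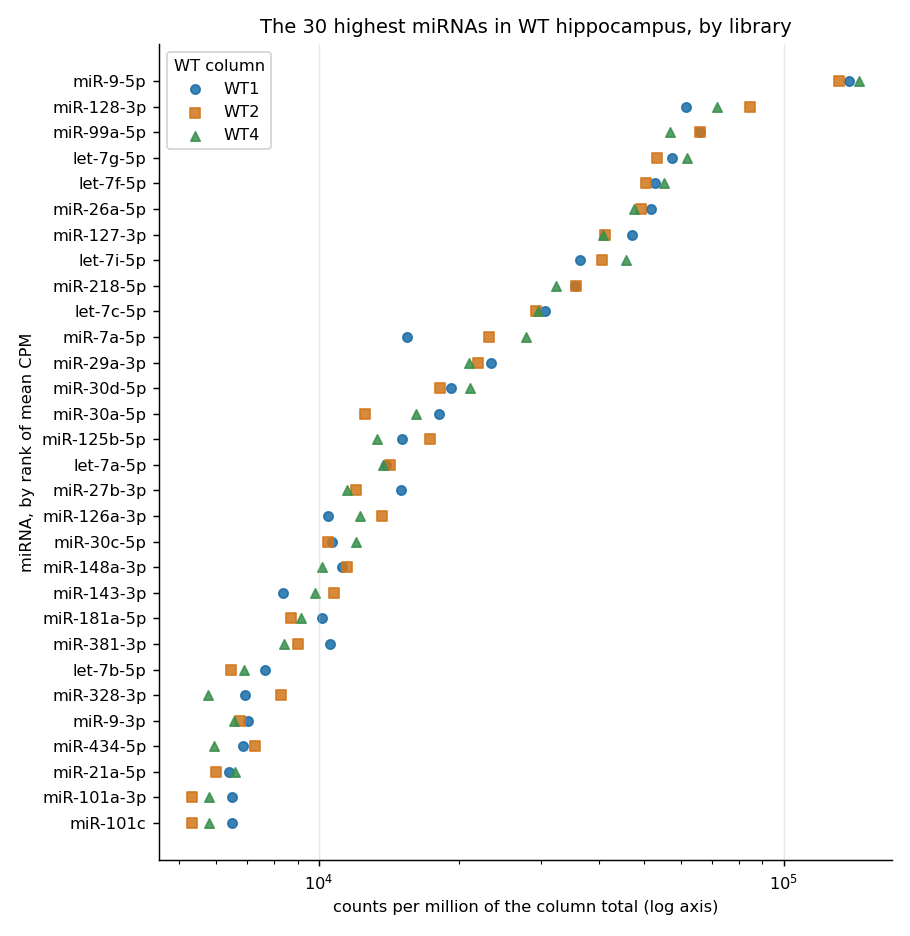
CPM (log axis) of the 30 miRNAs with the highest mean in WT hippocampus, 1 symbol per WT column. miR-9-5p stands alone at 131794 to 145297 CPM, while miR-7a-5p has the widest spread, from 15450 in WT1 to 27883 in WT4.

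The next group of abundant miRNAs included several with known cell types. miR-126a-3p, an endothelial miRNA within the Egfl7 gene, stood at 10427, 13683 and 12240 CPM in WT1, WT2 and WT4. miR-143-3p, a miRNA of vascular smooth muscle, stood at 8360, 10773 and 9805 CPM. Both were lowest in WT1 and highest in WT2, but their partners were not. miR-126a-5p was highest in WT1 (450, 392 and 431 CPM), and miR-145a-5p, also of smooth muscle, in WT4 (220, 264 and 403 CPM). miR-124-3p, the classical neuron-specific miRNA, ranked 35 with 4524, 4659 and 4756 CPM. The libraries differed little for it (4646 ± 116 CPM), and miR-9-5p exceeded it 28.3-fold to 30.6-fold within the libraries. Matched sequences of 21 to 23 bases held most counts, and counts were not scaled by length. How well different miRNAs are captured by the library kit was not tested, and the ranking is one of read counts.

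The second question was how counts gather on shared seeds. Of the 1978 listed names, 1679 were matched to a RefSeq mature sequence, and these held 94.2% of the counts. They carried 1398 different seeds, of which 187 were shared by more than 1 name. The 10 leading families held 69.5%, 70.1% and 71.7% of all counts in WT1, WT2 and WT4, and 4 families were enough for 50% of the matched counts in each library. Names without a match, such as miR-30d-5p, miR-143-3p, miR-328-3p and miR-124-3p, were not assigned to a family here, so the shares and ranks of families hold for matched names.

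The let-7 family, with the seed GAGGUAG, was the largest with 20.7%, 20.3% and 22.1% of all counts. It was spread over many members. let-7g-5p gave 27.4% of the family, let-7f-5p 25.2%, let-7i-5p 19.5%, let-7c-5p 14.2% and let-7a-5p 6.63%. The remaining members above 100 CPM were let-7b-5p at 6994 ± 596 CPM, let-7d-5p at 4422 ± 244, let-7e-5p at 2660 ± 206 and miR-98-5p at 957 ± 61.9. The list also holds let-7k at 7.03 ± 0.926 CPM and miR-1961, which shares the seed only, at 0.677 ± 0.227. Among the 36 pairs of the 9 abundant members, 4 pairs differ by 1 base over 22 bases and none by more than 6. The labels do not say how reads that fit more than 1 name were assigned, so the split between such members is uncertain.

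The next families rested on 1 miRNA each. The seed CUUUGGU of miR-9-5p and the seed CACAGUG of miR-128-3p each had a single listed member, with 13.8% and 7.27% of all counts. The ACCCGUA family held 7.23%, with 87.1% of it in miR-99a-5p, 7.92% in miR-100-5p and 4.95% in miR-99b-5p. miR-99a-5p exceeded miR-100-5p 9.64-fold to 12.1-fold within the libraries, although the sequences differ at 1 base. The UCAAGUA family held 5.18%, of which miR-26a-5p gave 95.6% and miR-26b-5p the rest. The seeds of miR-127-3p (CGGAUCC) and miR-218-5p (UGUGCUU) held 4.31% and 3.45% with no second member above 0.

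In the lower ranks of the 12 leading families, the members were again unequal. The matched miR-30 members (GUAAACA) held 3.22%, divided among miR-30a-5p at 15626 ± 2841 CPM, miR-30c-5p at 11045 ± 817, miR-30e-5p at 5347 ± 695 and miR-384-5p at 206 ± 8.45. This sum leaves out the unmatched names miR-30d-5p, at 19536 ± 1501 CPM or 1.95% of all counts, and miR-30b-5p, at 868 ± 158 CPM. miR-30d-5p was above miR-30a-5p in each library, so the share and rank given for miR-30 are too low if names are grouped by number. The miR-7 family (GGAAGAC), whose members bind the circular RNA Cdr1as, held 1.84% in WT1, 2.71% in WT2 and 3.27% in WT4. It was the most variable of the 12 families. miR-7a-5p (15450, 23170 and 27883 CPM) and miR-7b-5p (2937, 3960 and 4786 CPM) were both lowest in WT1 and highest in WT4, and their ratio was 5.26 to 5.85. The miR-29 family (AGCACCA), known for acting on collagen and DNA methyltransferase messages, held 2.32%, with 95.6% of it in miR-29a-3p. miR-125b-5p, a homologue of the worm lin-4 miRNA, gave 77.3% of the CCCUGAG family and miR-125a-5p 22.5%. miR-27b-3p gave 90.8% of the UCACAGU family and miR-27a-3p 9.21%. Of the 12 families, 8 had more than 1 member at 100 CPM or above. Among matched names, counts were thus concentrated on few seeds and, except in let-7 and miR-30, mostly on 1 member of each.

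**Figure D3:**
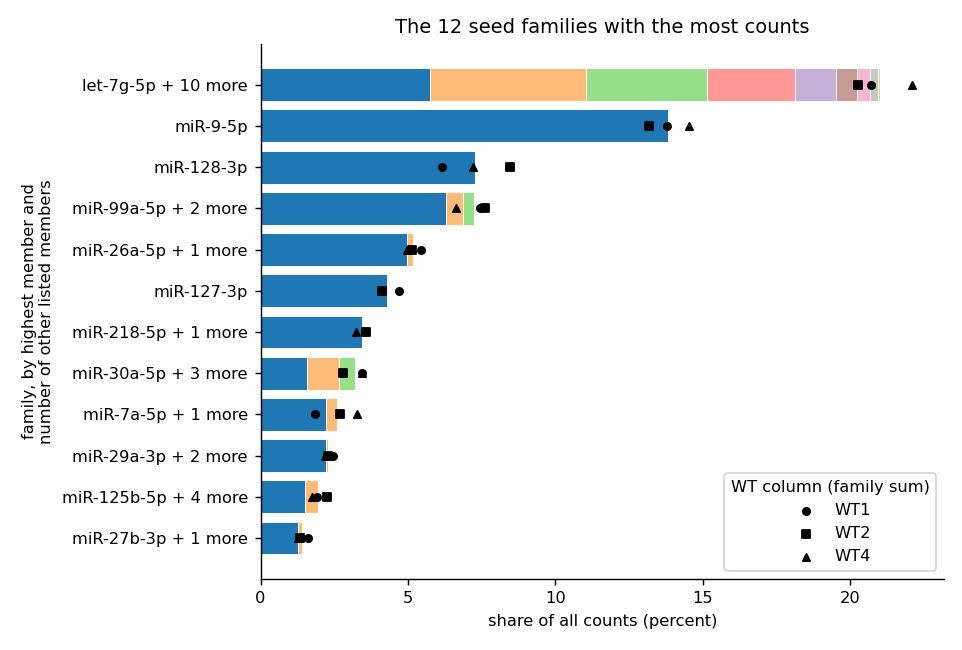
Share of all counts (percent) held by the 12 seed families with the highest sums over matched names, as stacked bars of member means, with the family sum of each WT column as a symbol. The let-7 bar, with library sums of 20.3% to 22.1%, is built from many members, whereas the bars of miR-9-5p and miR-128-3p have 1 member each.

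The abundant miRNAs also began mostly, but not all, with U. Among matched names 40.9% begin with U, but they held 80.7%, 81.1% and 82.4% of the matched counts in WT1, WT2 and WT4. Names beginning with A held 14.5% ± 0.731 of matched counts, those with C 2.40% ± 0.110 and those with G 1.68% ± 0.119, against 25.6%, 20.7% and 12.8% of names. Of the 27 matched miRNAs in the top 30, 22 begin with U, 4 with A and 1 with G, which is miR-434-5p. Sequences of 22 bases held 59.1% ± 1.22 of matched counts and made up 44.8% of names. Weighted by counts, GC content was 42.4% ± 0.303, while the mean over names was 52.2%. The pool thus leaned to U-initial, AU-rich sequences in all 3 libraries.

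The third question was which arm of a hairpin gives the counts. For 773 hairpin names both a 5p and a 3p arm are listed, and 348 of them reached a mean of 20 counts for both arms together. The other 425 fell below that minimum, 119 of them with 0 counts for both arms in each library. Both arms had to be listed under the same name, so let-7c-5p, whose 3p names carry a hairpin number (let-7c-1-3p and let-7c-2-3p), was left out. The abundant miR-128-3p, let-7f-5p, miR-26a-5p and miR-218-5p were also not among the 348. The log2 ratio of 5p over 3p was taken with 0.5 counts added to each arm. Where an included name has several hairpins in the genome its arms are summed over them. The 5p arm was higher in all 3 libraries for 161 hairpins (46.3%) and the 3p arm for 172 (49.4%), and 15 changed between libraries. The 5p arm was at least 10-fold ahead in every library for 107 hairpins and the 3p arm for 103. The median hairpin had 96.8% of its counts in its leading arm.

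By counts the 5p side was ahead. Names ending in 5p held 69.6%, 68.6% and 70.9% of all counts in WT1, WT2 and WT4, while names ending in 3p held 29.3% ± 1.20. Of the 10 most abundant miRNAs 8 are 5p, the 3p exceptions being miR-128-3p and miR-127-3p. Among the 63 hairpins with both arms together at 1000 CPM or more, 32 led with 5p and 30 with 3p. The 5p side was thus ahead in counts while the numbers of hairpins led by each arm were nearly even.

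Hairpins that illustrate the range are shown with both mature arms in capitals. Mirlet7g (chr9:106178840-106178927, plus strand) lies within the span of Wdr82 on the same strand. Mir127 (chr12:109592846-109592915, plus strand) lies within that of the noncoding gene 6430411K18Rik, also on its strand. Mir127 and Mir434 (chr12:109594506-109594599, plus strand) lie within the span of Rtl1 too, for which no strand was available here. Mir132 (chr11:75173682-75173747, plus strand) lies within no other listed gene span. Mir374b (chrX:103573060-103573154, minus strand) lies within Ftx on the same strand. Exons and introns of these genes were not used here.
Mirlet7g: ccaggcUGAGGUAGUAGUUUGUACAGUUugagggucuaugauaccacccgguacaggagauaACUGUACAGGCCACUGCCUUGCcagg
Mir127: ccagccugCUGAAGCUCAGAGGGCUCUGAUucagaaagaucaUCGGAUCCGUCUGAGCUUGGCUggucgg
Mir434: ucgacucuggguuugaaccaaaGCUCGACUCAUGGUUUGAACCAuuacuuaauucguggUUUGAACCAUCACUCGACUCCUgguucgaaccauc
Mir132: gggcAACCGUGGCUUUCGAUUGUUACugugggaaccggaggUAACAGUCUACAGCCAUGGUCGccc
Mir374b: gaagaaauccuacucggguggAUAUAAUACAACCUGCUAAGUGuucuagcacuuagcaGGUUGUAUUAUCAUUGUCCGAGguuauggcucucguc

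Among the 20 hairpins with the most counts of the 348, arm use ran from near equality to almost complete preference. let-7g-5p had 1244440, 962364 and 1025440 counts in WT1, WT2 and WT4, and let-7g-3p had 83, 65 and 49. miR-99a-3p similarly had 157, 100 and 166 counts beside 1426604, 1194395 and 943038 of its 5p arm. miR-9 used both arms at substantial levels. Its 3p arm, at 7011, 6741 and 6558 CPM, ranked 26 by itself, although the 5p arm was 19.6-fold to 22.2-fold higher. miR-127 led with 3p, and its 5p arm still reached 1003 ± 160 CPM.

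The 3p arm led for miR-29a, miR-27b, miR-148a, miR-143, miR-381, miR-328 and miR-101a, and the log2 ratio of 5p over 3p was below -9 for each in the mean of the libraries. Its values were -10.48 ± 0.31 for miR-29a and -10.10 ± 0.12 for miR-27b. For miR-126a it was -4.83 ± 0.30, with 425 ± 29.5 CPM in the 5p arm. The 5p arm led for let-7i, miR-30d, miR-30a, let-7b, miR-21a, miR-30e and miR-100. Here the log2 ratio ran from 2.64 ± 0.18 for miR-30e to 13.14 ± 0.06 for miR-21a. Hairpins with the same miR-30 number differed: miR-30d had 9.24 ± 0.11, miR-30a 4.12 ± 0.29 and miR-30e 2.64 ± 0.18, and these values did not overlap between the 3 hairpins.

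The most one-sided hairpins with at least 1000 counts were limited by the few counts of the minor arm. miR-374b-3p had 0 counts in all 3 libraries beside 5042, 3428 and 2845 of miR-374b-5p. miR-328-5p had 1, 0 and 0 counts beside 149957, 149551 and 95397 of miR-328-3p. The minor arms of miR-101b had 1, 1 and 0 counts, those of miR-149 also 1, 1 and 0, and those of miR-146a 2, 1 and 0. The 3p arms of miR-192 and miR-181d and the 5p arms of miR-107, miR-344, miR-23a and miR-598 had between 0 and 12 counts per library. For 27 of the 348 hairpins the minor arm was at 0 in every library.

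At the other end, several hairpins gave nearly equal counts from both arms. miR-132, which CREB induces in active neurons, had 1272, 1390 and 1168 CPM of 5p and 1347, 1246 and 1208 CPM of 3p. The 5p share of its counts was 50.2% ± 2.24, with 5p ahead in WT2 alone. miR-434, from the Dlk1-Dio3 region, had 59.0% ± 1.70 of 11365 CPM in its 5p arm, ahead in every library. miR-384, miR-485, miR-409, miR-376b, miR-369, miR-28a and miR-324 had mean log2 ratios from -0.25 (miR-324) to 0.25 (miR-28a). The leading arm changed between libraries for 6 hairpins with at least 1000 counts, among them miR-369 (log2 ratio -0.51, 0.14 and -0.32), miR-376b (-0.29, 0.44 and 0.37) and miR-3068 (-0.06, 0.43 and 0.42). Both arms reached 100 CPM for 34 hairpins.

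**Figure D4:**
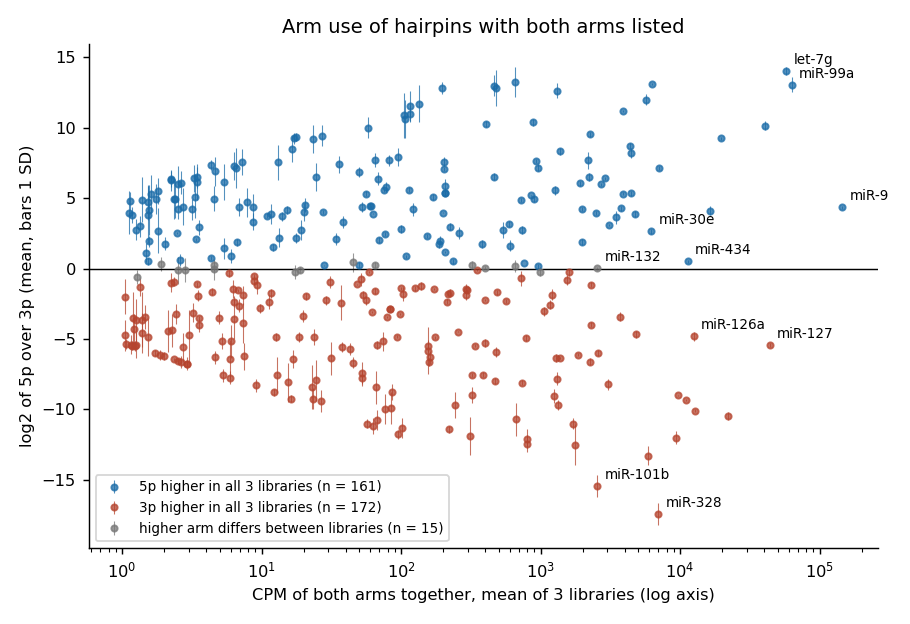
Log2 ratio of 5p over 3p counts, with 0.5 counts added to each arm (mean, bars 1 SD over 3 libraries), against the CPM of both arms together (log axis) for 348 hairpins. Points above 0 lead with 5p and points below with 3p. miR-132 and miR-434 lie near 0, and the widest ratios at a given level are bounded by the few counts of the minor arm.

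Leading and minor arms differed in their first base. For 163 hairpins with arms at least 10-fold apart in every library both sequences were matched. U began 100 leading arms (61.3%) and 26 minor arms. In 84 hairpins the leading arm alone began with U, in 10 the minor arm alone, in 16 both and in 53 neither. C began 14.1% of leading and 33.1% of minor arms. Arms of hairpins that share a family are not independent, and these shares are a description.

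The fourth question was where the abundant miRNAs lie in the genome. Of 1005 hairpins with GRCm38.p6 coordinates, 235 fell into 70 clusters of hairpins on 1 strand with gaps of at most 10000 bases. miRNAs whose known hairpins all lie in clusters held 37.5%, 35.6% and 34.5% of counts in WT1, WT2 and WT4. Those with no hairpin in a cluster held 37.6% ± 1.58, and 13 miRNAs with hairpins of both kinds, such as miR-9-5p, held 20.7% ± 0.688. With gaps up to 50000 bases the clustered share was 45.2%.

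Counting only matched names with no hairpin elsewhere, the highest cluster was Mir99a with Mirlet7c-1 (chr16:77598936-77599750, plus strand), at 63019 ± 5232 CPM. This leaves out let-7c-5p, which has another hairpin on chromosome 15. The next were 2 stretches of the imprinted Dlk1-Dio3 region on chromosome 12, where miRNAs are expressed from the maternal chromosome. The first (chr12:109563692-109595388) held 14 hairpins and 60224 ± 4939 CPM, of which miR-127-3p gave 43058. The second (chr12:109709060-109747960) held 36 hairpins and 29265 ± 1699 CPM, led by miR-381-3p (9313 ± 1096), miR-300-3p (3035 ± 255), miR-411-5p (2763 ± 223) and miR-379-5p (2351 ± 133). With the smaller clusters nearby, 103 miRNAs of 55 hairpins of the 4 clusters there held 100980, 93004 and 87319 CPM in WT1, WT2 and WT4, or 9.38% ± 0.686 of all counts. Within 1 stretch miR-127-3p exceeded miR-136-3p 25.5-fold to 28.2-fold.

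Cluster partners elsewhere were unequal to different degrees. In the chromosome 13 cluster of Mir23b, Mir27b and Mir24-1, miR-27b-3p exceeded miR-23b-3p 8.29-fold to 10.9-fold. miR-191-5p, from a chromosome 9 cluster with Mir425, exceeded miR-425-5p 26.5-fold to 32.8-fold. miR-125a-5p and let-7e-5p, together on chromosome 17, were 1.37-fold to 2.09-fold apart. miR-221-3p and miR-222-3p, together on the X chromosome, were 1.36-fold to 1.82-fold apart. Each of these ratios kept its direction in the 3 libraries. The remaining clusters of the 8 highest by matched names included Mir29a with Mir29b-1 (22165 ± 1257 CPM). The others were Mirlet7b with Mirlet7c-2 (7043 ± 602 CPM) and Mir30c-1 with Mir30e (6220 ± 705 CPM). Each sum leaves out names that have hairpins elsewhere, and the order of the clusters depends on this rule. The chromosome 13 cluster of Mirlet7a-1, Mirlet7d and Mirlet7f-1 stood at 4740 ± 256 CPM. Among the names it left out were let-7f-5p (52935 ± 2359 CPM) and let-7a-5p (13937 ± 245 CPM). How much of these came from this cluster cannot be told.

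Levels of miRNAs of known cell types were then described. The lists were chosen with earlier results of these data known, so they are no independent check of the tissue label. As a background, 10.7% of all listed miRNAs reached 100 CPM and their median was 0.0855 CPM. All 13 members of the neuron list reached 100 CPM, with a summed level of 270632, 298074 and 300231 CPM. Most of this sum was miR-9-5p (138354 ± 6759 CPM) and miR-128-3p, and the median member stood at 3894 CPM. The neuron-specific miR-124-3p gave 4646 ± 116 CPM of it. Whether cells other than neurons gave part of the sum was not tested. Besides those given above, the list includes miR-9-3p, miR-129-5p (3536 ± 732 CPM) and miR-138-5p (905 ± 21.5), an inhibitor of dendritic spine growth. Of the activity-induced list 5 of 6 members reached 100 CPM. Its miR-212-5p stood at 588, 688 and 632 CPM, and miR-132-3p exceeded miR-212-3p, from the same transcript, 12.5-fold to 14.5-fold. For the 5p arms the difference was smaller, as miR-132-5p exceeded miR-212-5p 1.85-fold to 2.16-fold. The sum of this list was 3663, 3753 and 3416 CPM.

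Glial and vascular miRNAs were present too. The oligodendrocyte list summed to 3462, 2407 and 2378 CPM, highest in WT1. All 5 of its members were highest there, among them miR-219a-2-3p (2131, 1369 and 1407 CPM), which promotes oligodendrocyte maturation, and miR-338-5p (531, 406 and 343 CPM). The list holds both arms of miR-338, so its members are not independent. WT1 was also the highest library for 126 of all 263 miRNAs with a mean count of at least 1000. The list for astrocytes and other glia held miRNAs that neurons also express and summed to 61236, 54940 and 57114 CPM, with all 6 members at 100 CPM. The endothelial list, both arms of miR-126a, summed to 12541 ± 1603 CPM. The mural and smooth muscle list summed to 10028 ± 1264 CPM, mostly miR-143-3p, which is also in the astrocyte list. miR-143-3p exceeded miR-145a-5p 24.3-fold to 40.9-fold. The let-7 list, added as a family rather than a cell type, had 9 of 10 members at 100 CPM.

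In the list for microglia and leukocytes, 3 of 7 members reached 100 CPM and its sum of 7297 ± 431 CPM was mostly miR-21a-5p (6325 ± 294), which many cell types express. The next were miR-146a-5p at 654 ± 153 CPM and miR-150-5p at 203 ± 8.46. The arms of miR-142a, a miRNA of blood cells, stood at 69.8 ± 3.16 (5p) and 38.7 ± 2.45 CPM (3p). miR-155-5p stood at 4.65 ± 0.107 CPM and the myeloid miR-223-3p at 2.73 ± 1.04. Erythroid miRNAs summed to 732 ± 91.4 CPM, with miR-451a at 278, 202 and 347 CPM. miR-144-3p, from the miR-451a transcript, stood at 32.4 ± 4.93 CPM.

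miRNAs listed for epithelia at the ventricles were also detected, and which cells gave them was not tested. In the list for choroid plexus and ciliated epithelium, 5 of 11 members reached 100 CPM, and the list summed to 6238, 6560 and 5229 CPM. miR-204-5p, abundant in choroid plexus and pigment epithelium, stood at 2686, 3615 and 2343 CPM. miR-34c-5p and miR-34b-5p, miRNAs of multiciliated cells, stood at 2217 ± 352 and 465 ± 73.5 CPM. miR-448-3p, from an intron of the serotonin receptor gene Htr2c, stood at 151 ± 13.1 CPM, while miR-449a-5p stood at 3.44 ± 0.162 and miR-141-3p at 0.531 ± 0.180 CPM.

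Lists for other tissues had lower sums, although they differ in their number of members and some members lay well above the median of all listed miRNAs. The pluripotent cell list had 0 counts in every library for 6 of 10 members (miR-290a-3p, miR-291a-3p, miR-292a-3p, miR-293-3p, miR-302a-3p and miR-367-3p), so each lay below the limit that a count of 0 allows. Of all 1978 listed miRNAs, 650 were likewise at 0 in every library. The germ line list summed to 0.809 ± 0.450 CPM, and its miR-743a-3p was at 0. The liver list summed to 7.28 ± 0.403 CPM, the Hox cluster list to 29.9 ± 2.69, the list for retina and hair cells to 39.0 ± 8.38 and miR-375-3p, of islets and pituitary, stood at 72.9, 72.2 and 44.8 CPM. The striated muscle list was an exception through 1 member. miR-1a-3p stood at 645, 464 and 603 CPM, whereas miR-133a-3p stood at 18.1 ± 1.71, miR-206-3p at 5.30 ± 1.29 and miR-208a-3p at 0 counts. miR-203-3p, of stratified epithelium, stood at 123, 261 and 346 CPM, and miR-205-5p, of the same epithelia, at 2.24 ± 1.27. In bulk tissue, fewer cells of a type and less RNA per cell cannot be told apart.

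**Figure D5:**
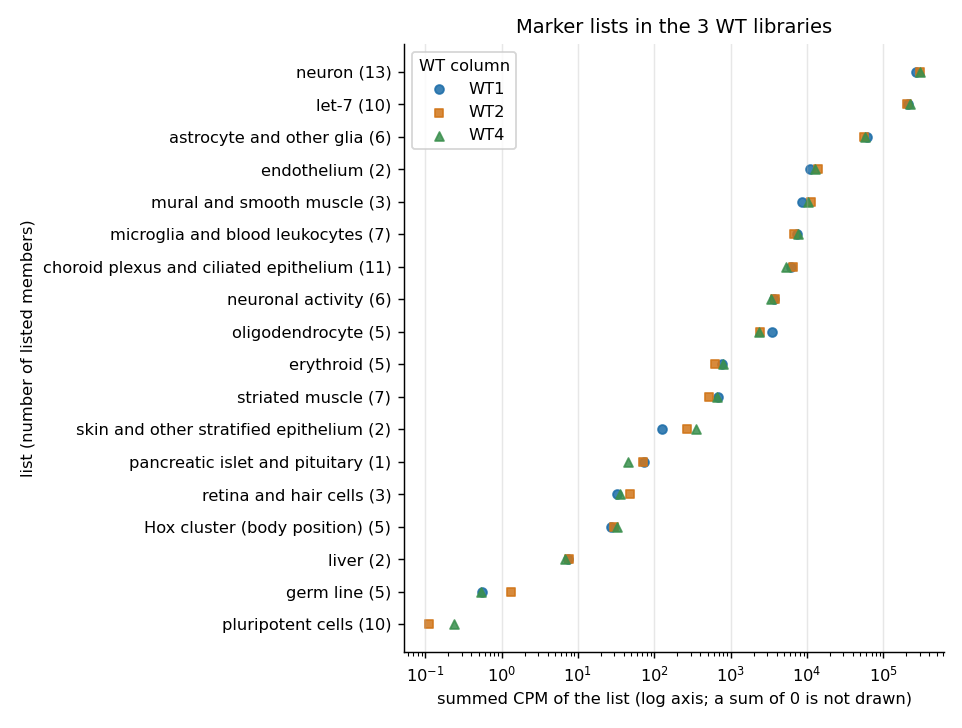
Summed CPM (log axis) of each marker list in the 3 WT columns, with the number of listed members in brackets. The neuron list is highest at 270632 to 300231 CPM, and the liver, germ line and pluripotent lists are lowest, with a sum of 0 in WT1 for the last.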

How the data were processed

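Small RNA libraries of WT hippocampus, 1 column each, were analysed. The deposited table holds raw counts per mature miRNA, whole numbers with a different total in each column. HISAT2, StringTie, DESeq and the build mm10 appear in the submitters' processing notes, with no version or role. Which of these made the miRNA counts is not given in the sources used here, nor is the treatment of reads that fit several names. Headings equal total RNA titles, so columns were assigned to the genotype only.

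CPM is the count divided by the column total and scaled to 1000000 (Python 3.11.15, pandas 2.3.3). Column totals set the precision, and Wilson intervals cover counting error only. Of 1978 names 1679 were matched to RefSeq sequences (GRCm38.p6) for seeds, first bases and clusters. Calculations were tested on simulated data. No test between groups applied. The members and the 18 marker lists were chosen with earlier results of these data known. Named miRNAs were the top 30, the 12 leading families, the 20 leading, 8 most one-sided per arm and 8 most even hairpins, 8 clusters, the 6 most variable miRNAs, rank borders and leading list members. Alternatives were TMM sizes (edgeR 4.0.16), other minimums, seeds, gaps and pseudocounts, and each library left out.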

Additional observations from a re-analysis of the deposited data

How the results depend on the processing

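For 8 summary results, 3 alternatives moved a value by more than the spread between libraries or, for counts and the median CV, by over 1.5 times. These were the arm counts with arms at least 10-fold apart, 107 for 5p and 103 for 3p in place of 161 and 172, and the clustered share with gaps of 50000 bases, 45.2% in place of 35.9%. All 3 change the definition of what is counted. With 1 library left out, the top 10 miRNAs held 58.0% to 58.5%, the miRNAs holding 90% numbered 52.5 to 54 on average, and the top 10 families held 69.8% to 70.9%. Likewise 164 to 165 hairpins led with 5p and 171 to 176 with 3p, U-initial names held 80.9% to 81.7%, clusters 35.0% to 36.5%, and the median CV over the remaining libraries was 9.48% to 10.7%. Counting equal rows once gave 129 and 145 hairpins, which also drops names whose low counts coincide. An alternative chosen after seeing the data, counting nearly equal rows once, gave 58.7% for the top 10 miRNAs. Leaving out 1 of 3 libraries cannot move a mean by 1 SD, so those values say nothing about the stability of single miRNAs or hairpins. Of 359 other recalculated CPM values none moved by 1 SD. TMM factors were 0.988 to 1.01, pooling counts reweights the same libraries, and counting equal rows once barely changes the totals. These settings could hardly move a CPM value, so this count is no evidence of stability either. Of 39 arm ratios recalculated with 5 counts added to each arm, 11 moved by more than 1 SD and none changed sign. For miR-328 the log2 ratio was then -14.57 in place of -17.45. No paired analysis was possible because only 1 group was described. Depth limits values near 1 count and the ratios of hairpins whose minor arm has few counts.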

Other observations

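A few miRNAs differed between the WT libraries by more than most, and the cause was not tested. Among 263 miRNAs with a mean count of at least 1000, the median CV was 11.4%. miR-342-3p, from within the Evl gene, had the highest CV, 62.3%, with 247 CPM in WT1, 147 in WT2 and 59.1 in WT4. miR-203-3p went the other way, with 123, 261 and 346 CPM. miR-298-5p stood at 93.2, 99.1 and 39.4 CPM and miR-135b-5p at 41.6, 77.0 and 84.7 CPM. miR-31-5p stood at 79.5, 47.0 and 45.4 CPM and miR-145a-5p at 220, 264 and 403 CPM. WT1 was the highest of the 3 libraries for 126 of the 263 miRNAs and WT4 the lowest for 126.

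Some names have nearly the same counts and sequences that are shifted or shortened copies of each other. miR-101a-3p had 140781, 96465 and 95753 counts in WT1, WT2 and WT4, and miR-101c differed from it by 19, 19 and 26 counts. Their sequences start at different bases, which places them in different seed groups, so nearly equal counts stand under different seeds. The seed is in capitals.
miR-101a-3p: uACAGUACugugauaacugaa
miR-101c: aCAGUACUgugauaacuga
miR-1843a-5p: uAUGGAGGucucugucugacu
miR-1843b-5p: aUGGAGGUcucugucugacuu
miR-374b-5p: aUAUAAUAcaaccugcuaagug
miR-374c-5p: aUAAUACAaccugcuaagug
The counts of miR-1843a-5p and miR-1843b-5p differed by 45, 33 and 44, at 1883 and 1880 CPM, and those of miR-374b-5p and miR-374c-5p by 2, 4 and 0. Another 13 groups of names, 28 in all with a mean count of at least 20, had exactly equal counts in each WT library, among them miR-199a-3p with miR-199b-3p and miR-486a-5p with miR-486b-5p. Such names cannot be separated in this table.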
